A study of Mus musculus with 12 samples.

Results

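The genes described here are 8 regulators of the embryonic atrioventricular canal, taken by name from an RNA-seq table of 23427 genes measured in mouse cells labelled as cardiomyocytes. They are the T-box repressors Tbx2 and Tbx3, the ligands Bmp2, Bmp4 and Tgfb2, the homeobox genes Msx1 and Msx2, and the basic helix-loop-helix gene Twist1. All 8 were found in the table, and 7 had a value in each of the 4 libraries. Msx1 was blank in both libraries of the Hey1 line, and a blank cell means fewer reads than the floor at which values are listed.

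The atrioventricular canal is the segment between the atria and ventricles whose muscle conducts slowly and whose endocardial cushions give rise to valves. In the mouse embryo, Bmp2 made by canal muscle switches on Tbx2, and Tbx2 and Tbx3 hold down chamber genes such as Nppa and Gja5. Hey1 and Hey2, repressors downstream of Notch, are made in the chambers and keep Tbx2 and Bmp2 confined to the canal. Msx genes respond to BMP signals, and Tgfb2 and Twist1 act in the change of cushion endocardium into mesenchyme and in the mesenchyme that follows.

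The cells were labelled as cardiomyocytes and grown from CM7/1, a line of mouse embryonic stem cells. There was a version that overexpresses Hey1 and a version that overexpresses Hey2 on doxycycline. Doxycycline was given at 1000 ng/ml over 48 h to the induced cells of both lines, and the controls were uninduced cells of the same line. There was 1 RNA library for each combination of line and treatment. No p-value is therefore given, and each ratio below compares 2 libraries, and its 95% interval covers counting error only. The sources used here do not say whether a line is 1 clone, which promoter drives the transgene, or how many cultures were pooled. Doxycycline without an inducible Hey gene was not analysed here, so the drug and the Hey gene cannot be told apart.

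Levels are in RPKM, which corrects reads for gene length and for library depth. The reads behind them were recovered from the steps in the values, and amounted to between 2296145 and 4182141 reads in listed genes per library. Hey1 stood at 0.735 RPKM in uninduced and 8.59 RPKM in induced Hey1-line cells. Hey2 was blank in uninduced and stood at 6.59 RPKM in induced Hey2-line cells, so each induced gene was high where the label says it was induced. The cell type label held for the Hey1 line: all 8 cardiomyocyte markers were listed, with a summed level of 11313 RPKM uninduced and 12017 RPKM induced. In the Hey2 line the same markers summed to 734 and 787 RPKM. None of the 6 neural crest and neural markers in the table was listed in the Hey1 line, and 4 were in each Hey2-line library, with a sum of at most 3.78 RPKM. Epicardial markers summed to 0.9 to 2.87 RPKM, and endoderm markers to 61.7 and 45.2 RPKM in the Hey1 line and 10.5 and 9.62 RPKM in the Hey2 line. Of the 5 endoderm markers in the table, 2 and 3 were listed in the uninduced and induced Hey1 line and 4 in each Hey2-line library. Sox17 was blank in both Hey1-line libraries and listed in both Hey2-line ones, so the sums do not hold for each marker. The 7 pluripotency markers in the table summed to 34.0 and 26.5 RPKM in the Hey1 line, against 304 and 308 RPKM in the Hey2 line. The libraries labelled as Hey2-line cardiomyocytes thus held far less cardiomyocyte RNA and more pluripotent-cell RNA, and in bulk samples fewer cells of a type and less RNA per cell cannot be told apart. Endothelial and endocardial markers were low throughout, with 4 to 8 of 8 listed and a summed level of 3.48 to 8.22 RPKM. Cdh5, Tie1 and Emcn were blank in both Hey1-line libraries.

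Promoter sequences are shown because the induced proteins recognise E-boxes such as CACGTG, and these are the members whose promoter window held one. Mouse promoter windows from RefSeq (GRCm38.p6), running from 250 bases before to 50 after a start site, were matched by symbol for 5 members, Bmp4, Msx1, Msx2, Tgfb2 and Twist1. Tbx2, Tbx3 and Bmp2 were not used here. The letters CACGTG, which read the same on both strands, occurred in the windows of Tgfb2 and Bmp4 and in 7.15% of 32817 windows of all genes. The variant CACGCG, searched on both strands, occurred in 0 of the 5 and in 9.26% of all windows. The Tgfb2 window lies at chr1:186705940-186706239 on the minus strand, with its CACGTG, in capitals, beginning 51 bases before the start site. The Bmp4 window lies at chr14:46390620-46390919 on the minus strand, with CACGTG beginning 188 bases before the start site. A match describes the letters only, since binding was not measured in the data used here.
Tgfb2: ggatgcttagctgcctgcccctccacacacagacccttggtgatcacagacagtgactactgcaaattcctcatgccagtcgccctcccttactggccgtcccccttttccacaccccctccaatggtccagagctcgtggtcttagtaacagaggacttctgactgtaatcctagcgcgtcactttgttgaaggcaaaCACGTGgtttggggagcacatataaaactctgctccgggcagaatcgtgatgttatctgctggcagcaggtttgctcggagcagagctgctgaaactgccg
Bmp4: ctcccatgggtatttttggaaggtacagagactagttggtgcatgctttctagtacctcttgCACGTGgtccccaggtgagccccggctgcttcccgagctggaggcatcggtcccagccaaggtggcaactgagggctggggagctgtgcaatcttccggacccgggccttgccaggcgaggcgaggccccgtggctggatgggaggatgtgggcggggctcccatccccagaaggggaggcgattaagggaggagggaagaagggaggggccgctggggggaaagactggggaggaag

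The first question was how strongly the canal regulators were expressed. Tgfb2 had the highest RPKM of them in every library, though in uninduced Hey2-line cells it did not exceed Bmp4 beyond counting error (1.23-fold, 0.898 to 1.7). The order below it differed between the lines. In uninduced Hey1-line cells the order by RPKM, a level per length, was Tgfb2, Tbx2, Bmp4, Tbx3, Bmp2, Twist1 and Msx2. Each of the first 3 exceeded the next beyond counting error, while Tbx3 and Bmp2, Bmp2 and Twist1, and Twist1 and Msx2 did not differ beyond it. In uninduced Hey2-line cells the order was Tgfb2, Bmp4, Bmp2, Tbx3, Msx2, Tbx2, Twist1 and Msx1, and among neighbours Bmp4 alone exceeded the next beyond counting error, by 1.73-fold (1.17 to 2.55). Tbx2 thus moved from the second place to the sixth. In the uninduced Hey1-line library 14.8% of listed genes had a higher RPKM than Tgfb2 and 28.2% a higher RPKM than Tbx2. In the uninduced Hey2-line library these shares were 42.2% and 77.1%. The shares for the other members listed in the Hey1 line changed less, for Bmp2 from 64.6% to 63.5% and for Bmp4 from 44.4% to 48.3%.

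**Figure D1:**
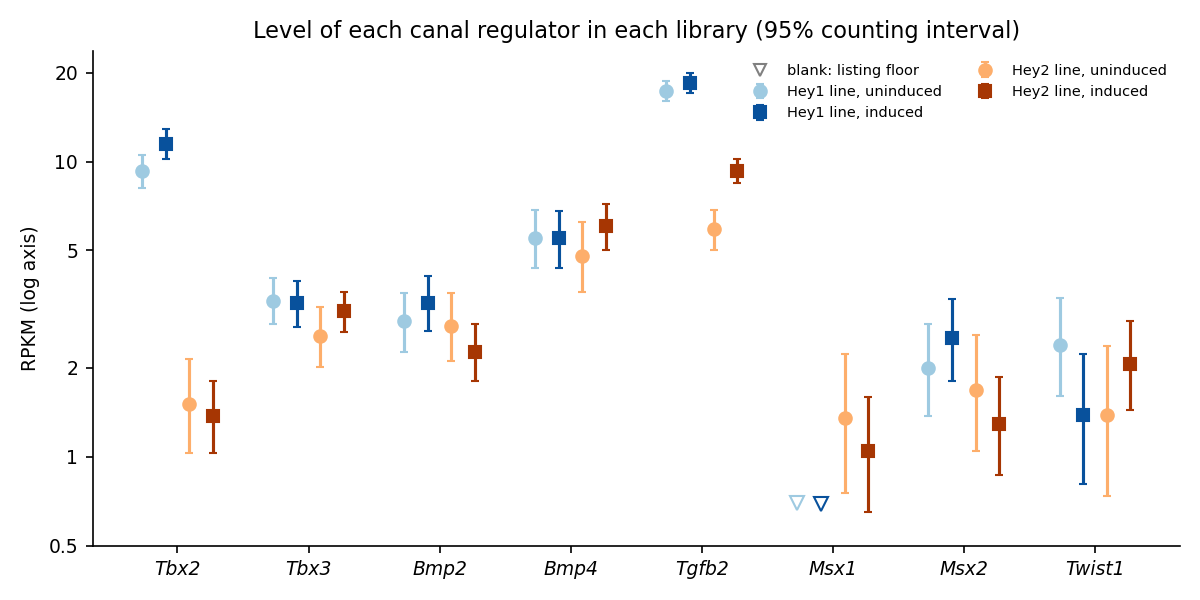
RPKM of the 8 canal regulators in the 4 libraries on a log axis, with circles for uninduced and squares for induced cells and bars for the 95% counting interval of each library. Tbx2 and Tgfb2 sit apart by line, at 9.29 against 1.51 RPKM and 17.4 against 5.89 RPKM in uninduced cells, and open triangles mark the listing floor of Msx1 in the Hey1 line.

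Within the T-box pair the balance was inverted between the lines. Tbx2 stood at 2.75 times the RPKM of Tbx3 (2.21 to 3.44) in uninduced Hey1-line cells and at 3.48 times (2.82 to 4.31) after induction. In the Hey2 line it stood at 0.590 times the RPKM of Tbx3 (0.375 to 0.907) uninduced and 0.444 times (0.317 to 0.611) induced. Bmp4 exceeded Bmp2 in all 4 libraries. The ratio of Bmp4 to Bmp2 RPKM was 1.91 (1.38 to 2.64) and 1.65 (1.21 to 2.25) in uninduced and induced Hey1-line cells. In Hey2-line cells it was 1.73 (1.17 to 2.55) and 2.66 (2 to 3.55). The 4 intervals of the BMP pair overlap, whereas those of the T-box pair do not overlap between the lines.

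Induction of Hey1 was then examined, the comparison in which the embryo's repressor of the canal genes is raised in cells that carry a strong cardiomyocyte signature. Tbx2, the T-box repressor of chamber genes, stood at 9.29 RPKM uninduced and 11.5 RPKM induced, from 245 and 307 reads, which is 1.24-fold higher on induction (1.04 to 1.47). It was the 1 member of 7 compared whose interval lay above 1, as did the intervals of 5.11% of 10644 genes compared, and 6.98% of these genes had a larger ratio. Tbx3, its close relative, stood at 3.38 and 3.31 RPKM, a ratio of 0.979 (0.759 to 1.26). Tbx2 was thus not lower when Hey1 was higher, and Tbx3 was level within counting error.

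The ligands showed no difference beyond counting error on Hey1 induction. Bmp2, which induces Tbx2 in the canal, stood at 2.88 RPKM uninduced and 3.33 RPKM induced, a ratio of 1.16 (0.841 to 1.59). Bmp4, a related ligand of cardiac progenitors and the outflow tract, stood at 5.49 RPKM in both libraries, with a ratio of 0.999 (0.726 to 1.37). Tgfb2, a ligand that drives cushion mesenchyme formation, stood at 17.4 and 18.5 RPKM, a ratio of 1.06 (0.952 to 1.19) from 608 and 656 reads. The Tgfb2 interval was the narrowest of the 3, so the data limit any difference of Tgfb2 most closely.

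Of the downstream transcription factors, Msx2 was 1.26-fold higher (0.777 to 2.07), at 2 and 2.53 RPKM from 32 and 41 reads. Msx1 was blank in both libraries, where the floor of 10 reads equals 0.7 and 0.69 RPKM. Twist1, a driver of mesenchymal state, stood at 2.4 RPKM uninduced and 1.39 RPKM induced, from 29 and 17 reads, which is 1.73-fold lower (0.919 to 3.35). Its interval reaches past 1, so the difference was not detectable at this depth. Twist1 was the 1 member of the 7 compared that passed 1.5-fold in either direction, against 7.12% of 10644 genes, of which 1.42% were higher and 5.7% lower. Over these 7 the median log2 ratio was 0.09, beside -0.07 over all genes compared. Among all genes 151 were higher and 607 lower by 1.5-fold, which became 237 and 390 with median ratio scaling and 211 and 434 with upper quartile scaling. The directions of Tbx3 and Bmp4 turned to higher under both of these scalings. Fibroblast and mesenchyme markers were lower in the same comparison: all 4 compared were lower, beside 60.9% of all genes, and 1 of them passed 1.5-fold, with a summed level of 43.3 RPKM uninduced and 37.4 RPKM induced, and Lum and Thy1 were blank in both. Their part in the Twist1 value was not tested.

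**Figure D2:**
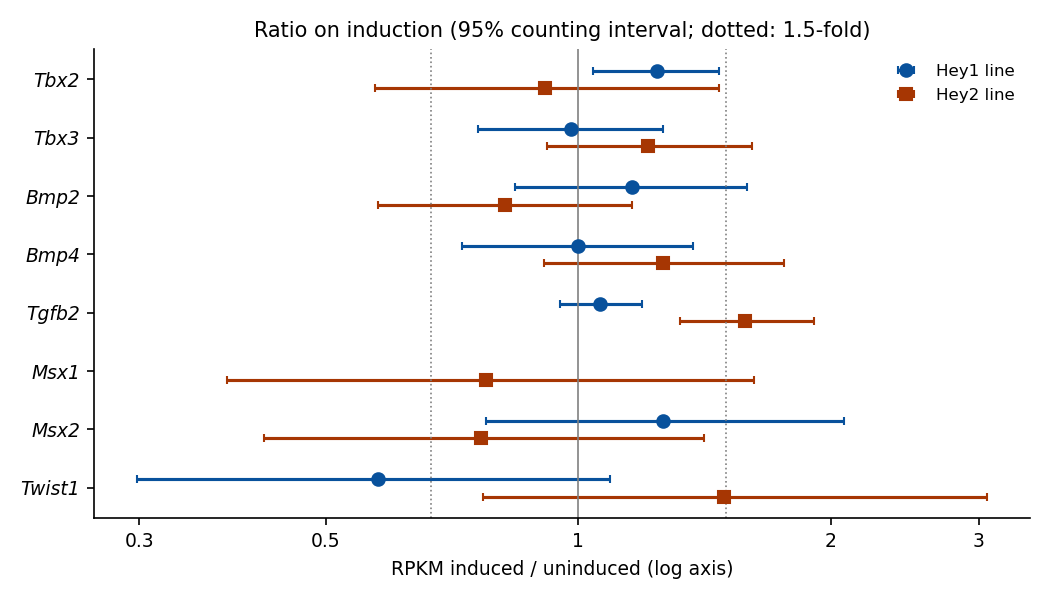
Ratio of induced to uninduced RPKM for each canal regulator on a log axis, in the Hey1 line (circles) and the Hey2 line (squares), with 95% counting intervals and dotted lines at 1.5-fold. The intervals of Tbx2 in the Hey1 line (1.04 to 1.47) and of Tgfb2 in the Hey2 line (1.32 to 1.91) lie above 1, and every other interval holds 1.

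In the Hey2 line the ligand Tgfb2 stood out. It was 1.58-fold higher after induction (1.32 to 1.91), at 5.89 RPKM uninduced and 9.32 RPKM induced, from 160 and 457 reads at a larger depth in the induced library. This was the 1 member of 8 compared that passed 1.5-fold, against 5.88% of 11943 genes in either direction, 2.65% higher and 3.22% lower. It was also the 1 member with an interval above 1, as 7.88% of genes had. A larger ratio was found in 1.92% of genes. Longer genes had somewhat higher ratios in this comparison. Of 2881 genes within 25% of the recovered Tgfb2 length of 4725 bases, the median ratio was 1.02 and 1.98% were higher by 1.5-fold. Divided by that median, the Tgfb2 ratio was 1.55.

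The BMP ligands pointed in different directions without leaving counting error. Bmp2 stood at 2.78 RPKM uninduced and 2.27 RPKM induced, 1.22-fold lower (0.859 to 1.73). Bmp4 stood at 4.80 and 6.05 RPKM, 1.26-fold higher (0.910 to 1.76). Of the T-box genes, Tbx2 stood at 1.51 and 1.38 RPKM, a ratio of 0.912 (0.572 to 1.47) from 31 and 51 reads. Tbx3 stood at 2.57 and 3.11 RPKM, 1.21-fold higher (0.917 to 1.61). The Tbx2 interval allows a level up to 1.75-fold lower or 1.47-fold higher on induction.

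The Msx genes and Twist1 were low in both Hey2-line libraries. Msx1 stood at 1.35 and 1.05 RPKM from 15 and 21 reads, 1.29-fold lower (0.618 to 2.62). Msx2 stood at 1.69 and 1.29 RPKM from 21 and 29 reads, 1.31-fold lower (0.708 to 2.37). Twist1 stood at 1.39 and 2.07 RPKM from 13 and 35 reads, 1.49-fold higher (0.770 to 3.07), just inside 1.5-fold. Over the 8 members the median log2 ratio was 0.07, beside -0.01 over all genes. Of 8 fibroblast and mesenchyme markers 6 were higher in the same comparison, beside 49% of all genes. These markers had a summed level of 67.0 RPKM uninduced and 84.4 RPKM induced and a median log2 ratio of 0.30. The 1 past 1.5-fold was the matrix proteoglycan gene Dcn at 1.71-fold higher (1.07 to 2.8), and the 2 lower were Lum at 0.859 (0.474 to 1.59) and Thy1 at 0.881 (0.581 to 1.35). Their part in the Tgfb2 and Twist1 values was not tested.

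**Figure D3:**
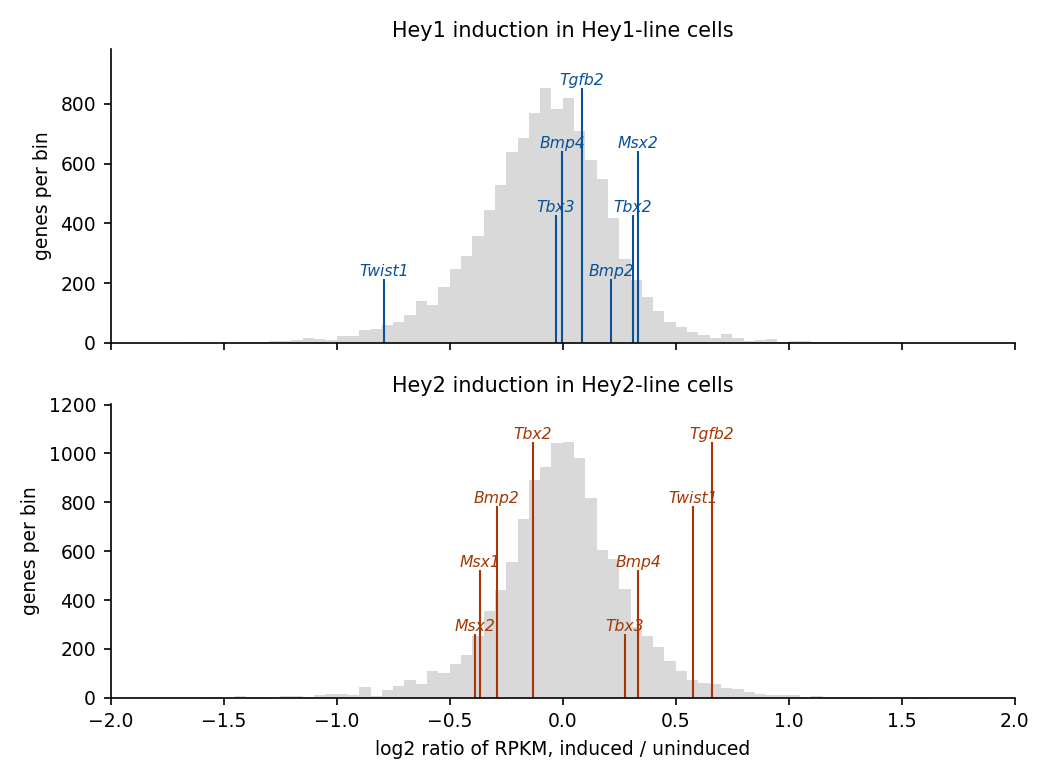
Histograms of the log2 ratio of induced to uninduced RPKM over all genes compared (grey, genes per bin, ratios beyond 4-fold placed in the end bins), for Hey1 induction above and Hey2 induction below, with vertical lines at the canal regulators; line heights only separate the names. Twist1 at -0.79 in the Hey1 line, and Tgfb2 at 0.66 and Twist1 at 0.58 in the Hey2 line, lie in the tails. On Hey2 induction 1.92% of genes had a larger ratio than Tgfb2 and 2.75% a larger ratio than Twist1. The other members lie within the bulk of genes or on its shoulders.

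The responses of both lines were next set against each other. Of the 7 members with a value in all 4 libraries, 6 went in opposite directions and 1, Tgfb2, was higher in both. Of all genes compared, 39.1% were higher on Hey1 induction and 49% on Hey2 induction. The share of all genes with opposite directions is not given here, so the 6 are not read as a trait of the members. For Tbx3 and Bmp4 the Hey1-line ratios were 0.979 and 0.999, close to 1. For Tgfb2 the Hey2-line ratio was 1.49 times the Hey1-line ratio (1.2 to 1.85), the 1 difference of responses whose counting interval lay off 1. For Twist1 this quotient was 2.58 (0.992 to 6.81), for Bmp4 1.26 (0.792 to 2.01) and for Tbx3 1.24 (0.843 to 1.82). For Tbx2, Bmp2 and Msx2, which were higher with Hey1 and lower with Hey2, it was 0.737 (0.447 to 1.23), 0.707 (0.437 to 1.14) and 0.605 (0.275 to 1.34). Under median ratio and upper quartile scaling Tbx3 and Bmp4 were higher in both lines. The cultures of the lines differed before induction, and how that bears on the responses was not tested.

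The largest differences of the canal regulators lay between the lines. Tbx2 was 6.14-fold lower in uninduced Hey2-line than in uninduced Hey1-line cells (4.22 to 9.24), at 1.51 against 9.29 RPKM. In induced cells it was 8.33-fold lower (6.18 to 11.4), at 1.38 against 11.5 RPKM. Tbx2 was therefore low in both Hey2-line libraries, and 2.62% of 11171 genes in the uninduced pair had a smaller ratio. Tgfb2 was 2.95-fold lower (2.48 to 3.54) in uninduced and 1.99-fold lower (1.76 to 2.24) in induced Hey2-line cells. The values of the other members follow.

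Tbx3 was 1.32-fold lower in the uninduced Hey2 line (0.981 to 1.77) and 1.06-fold lower in the induced one (0.836 to 1.35), less than Tbx2. Its uninduced ratio of 0.76 became 0.652 under median ratio and 0.649 under upper quartile scaling, past 1.5-fold lower. Divided by the median ratio of genes of similar length it was 0.58. Bmp2 was level in uninduced cells, at 2.78 against 2.88 RPKM, a ratio of 0.965 (0.672 to 1.38). In induced cells Bmp2 was 1.47-fold lower in the Hey2 line (1.08 to 2). Bmp4 was 1.14-fold lower uninduced (0.803 to 1.64) and 1.1-fold higher induced (0.827 to 1.47), of which the second turned to lower under both other scalings. Msx2 had ratios of 0.845 (0.463 to 1.51) uninduced and 0.511 (0.306 to 0.843) induced. Twist1 was 1.73-fold lower uninduced (0.873 to 3.63) and 1.49-fold higher induced (0.812 to 2.83). Msx1 was listed in the Hey2 line alone. Its values there were 1.93 times (uninduced) and 1.52 times (induced) the floor of 10 reads in the Hey1-line library, leaving out counting error. With it, the Hey2-line levels were 1.35 RPKM (0.756 to 2.23) and 1.05 RPKM (0.649 to 1.6), against floors of 0.7 and 0.69 RPKM. The induced interval reaches below its floor, so a difference in induced cells does not hold beyond counting error.

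In the uninduced pair 3 of 7 members compared (Tbx2, Tgfb2 and Twist1) were lower by 1.5-fold or more and 0 higher, against 24.9% of 11171 genes lower and 39.2% higher. In the induced pair 3 of 7 (Tbx2, Tgfb2 and Msx2) were lower and 0 higher, against 24.5% of 11133 genes lower and 41.6% higher. Intervals lay below 1 for 2 of 7 members in the uninduced pair, beside 28.4% of genes, and for 4 of 7 in the induced pair, beside 29.3%. The median log2 ratio of the members was -0.40 and -0.55, beside 0.27 and 0.33 over all genes. Median ratio scaling shifts every log2 ratio by -0.22 in the uninduced and -0.31 in the induced pair, and upper quartile scaling by -0.23 and -0.31. Under median ratio scaling the split of all genes in the uninduced pair was 3611 higher and 3397 lower, instead of 4381 and 2778. In the induced pair it was 3617 and 3568, instead of 4635 and 2723. Under median ratio and upper quartile scaling 4 of 7 members were lower by 1.5-fold or more and 0 higher, in each pair. Cardiomyocyte markers were low in the Hey2 line too: all 7 compared were lower in the uninduced pair, with a median log2 ratio of -3.56, beside -2.62 for Tbx2 and -1.56 for Tgfb2. Smooth muscle markers summed to 671 RPKM in the uninduced Hey1 line and 182 RPKM in the uninduced Hey2 line. Their part in the line difference of Tbx2 and Tgfb2 was not tested.

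**Figure D4:**
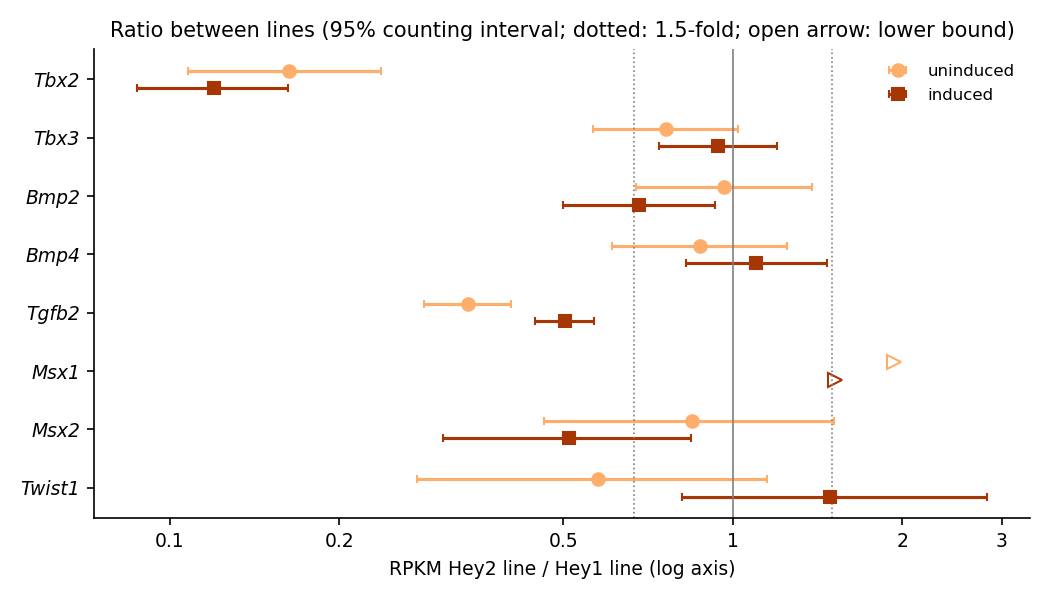
Ratio of RPKM in the Hey2 line to the Hey1 line for each canal regulator on a log axis, in uninduced (circles) and induced cells (squares), with 95% counting intervals and dotted lines at 1.5-fold. Open arrows mark the lower bounds of Msx1, which leave out counting error. Tbx2 (0.163 and 0.120) and Tgfb2 (0.339 and 0.504) lie below 1 in both pairs, whereas the intervals of Tbx3 and Bmp4 hold 1 in both.

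Genes with the most similar pattern over the 4 libraries were sought in 6999 genes that had 50 or more reads in every library. Likeness was the Euclidean distance between log2(RPKM + 1) values centred on each gene's own mean. Closest to Tbx2 were Pcolce (distance 0.070), which encodes an enhancer of procollagen processing, Myocd (0.114), the coactivator of Srf in cardiac and smooth muscle, and Mtap1a (0.117), a microtubule-associated protein gene. Myocd, for example, stood at 12.6, 14.4, 2.07 and 1.83 RPKM in uninduced and induced Hey1-line and uninduced and induced Hey2-line cells. Closest to Bmp2 were Ppp1r16a (0.029), ORF34 (0.053) and Scamp4 (0.054). All 3 were lowest in induced Hey2-line cells and highest in induced Hey1-line cells, ORF34 at 1.28 and 2.15 RPKM, as Bmp2 was at 2.27 and 3.33 RPKM. With 4 points such likeness is common: 181 genes lay within 0.5 of Tbx2 and 2031 within 0.5 of Bmp2.

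The wider pathway was described with 84 genes in 8 lists. On Hey1 induction 58 could be compared, of which 2 were higher and 3 lower by 1.5-fold, or 3.45% and 5.17%, beside 1.42% and 5.7% of all genes. Both were Hey1 itself and Id4. On Hey2 induction 4 of 57 were higher (7.02%) and 3 lower (5.26%), beside 2.65% and 3.22%. Between the uninduced lines 15 of 57 were higher in the Hey2 line (26.3%) and 25 lower (43.9%), beside 39.2% and 24.9%. Between the induced lines 19 of 59 were higher (32.2%) and 24 lower (40.7%), beside 41.6% and 24.5%. These shares of all genes also stand beside the counts of each list below.

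Among other ligands, 0 of 7 passed 1.5-fold on Hey1 induction, where Tgfb1 had the largest ratio at 1.34 (0.895 to 2.01) and Nodal the smallest at 0.699 (0.352 to 1.36). On Hey2 induction 1 of 6 passed, Inhba, which encodes an activin subunit, at 1.96-fold higher (0.987 to 4.25) from 11 and 39 reads. Tgfb3 had the smallest ratio there, 0.812 (0.490 to 1.36). Between the uninduced lines 2 of 7 ligands were higher in the Hey2 line and 4 lower. Gdf3 was 7.98-fold higher in the Hey2 line (4.06 to 17.5) and Nodal, an epiblast and streak signal, 6.22-fold higher (3.98 to 10.1). Bmp7, which shares receptors with Bmp2, was 6.25-fold lower (4.62 to 8.62), Inhba 5.58-fold lower (2.96 to 11.6) and Tgfb3 1.69-fold lower (1.07 to 2.75).

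Of the receptors, 0 of 7 passed 1.5-fold on Hey1 induction and 0 of 9 on Hey2 induction, beside 7.12% and 5.88% of all genes. With so few receptors these counts cannot be set apart from those shares. Tgfbr2 had the largest ratio for Hey1, 1.27 (0.832 to 1.95), and Tgfbr1 the smallest, 0.852 (0.684 to 1.06). For Hey2 these were Acvr2b at 1.5 (1.00 to 2.29), just under the size rule, and Eng at 0.876 (0.631 to 1.22). Without induction 39.2% of all genes were higher in the Hey2 line by 1.5-fold and 24.9% lower. Near the first share, 4 of 9 receptors were higher and 0 lower. They were the endothelial coreceptor Eng at 4.99-fold (2.84 to 9.26), Tgfbr3, a coreceptor that presents Tgfb2, at 2.99-fold (1.89 to 4.83), Acvr2b at 2.92-fold (1.55 to 5.76) and Acvr2a at 1.51-fold (1.12 to 2.04). The BMP type 2 receptor gene Bmpr2 had the smallest ratio, 0.929 (0.798 to 1.08).

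Of the signal transducers, 0 of 8 Smads passed 1.5-fold on Hey1 induction, and 7 of 8 lay lower, beside 60.9% of all genes. The exception was the inhibitory Smad6, 1.22-fold higher (1.04 to 1.44), at 12.1 and 14.8 RPKM, and the smallest ratio was that of Smad7, 0.835 (0.677 to 1.03). On Hey2 induction Smad7, a feedback inhibitor of TGF-beta receptors, was 1.58-fold higher (1.17 to 2.15), at 2.39 and 3.78 RPKM, and Smad1, which carries BMP signals, had the smallest ratio at 0.938 (0.752 to 1.17). Among uninduced cells Smad6 was 6.67-fold lower in the Hey2 line (4.59 to 10), Smad9 5.98-fold lower (3.08 to 13.0) and Smad7 2.57-fold lower (1.92 to 3.49), while the common partner Smad4 was 1.92-fold higher (1.62 to 2.27).

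Of the Id genes, direct targets of BMP signals, Id1 and Id2 had opposite directions on the inductions and Id3 was lower on both. For Id1 both intervals held 1, so its directions lie within counting error. On Hey1 induction 3 of 4 were higher, led by Id4 at 1.66-fold (0.865 to 3.31), with Id3 at 0.757 (0.568 to 1.01). On Hey2 induction all 3 compared were lower, beside 51% of all genes. They ran from Id1 at 1.28-fold lower (0.856 to 1.89) to Id2 at 1.5-fold lower (1.06 to 2.12), with Id3 at 0.725 (0.534 to 0.986). Id4 was under the mean of 1 RPKM there, with 5 and 10 reads and a ratio of 1.11 (0.345 to 4.13). In uninduced cells Id1 was 1.97-fold higher in the Hey2 line (1.22 to 3.24) and Id2 2.07-fold lower (1.55 to 2.79). The median log2 ratio was 0.35 over the 4 Id genes on Hey1 induction and -0.46 over the 3 on Hey2 induction, and the difference between the lines was not tested.

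Secreted antagonists were mostly under the listing floor in the Hey1 line, where 4 of 10 could be compared and 0 passed 1.5-fold. Their ratios ran from 0.883 (0.431 to 1.79) for Nog to 1.23 (0.729 to 2.10) for Bmper. In the Hey2 line Nog, which binds and blocks BMP ligands, was 1.64-fold higher on induction (1.05 to 2.64), at 2.44 and 4.01 RPKM. Cer1 was 1.88-fold lower (1.23 to 2.87) and Fst, which binds activins, 1.77-fold lower (1.43 to 2.21). In that comparison all 5 primitive streak and mesoderm markers compared were lower too, beside 51% of all genes. These markers had a summed level of 43.9 RPKM over the 5 listed uninduced and 30.9 RPKM over the 6 listed induced. Their part in the Cer1 and Fst values was not tested. Of the uninduced pair 1 of 3 compared passed, Nog at 1.83-fold higher in the Hey2 line (0.980 to 3.48), and Fstl1 had the smallest ratio at 1.04 (0.911 to 1.19). Other antagonists were blank in the uninduced Hey1 line and listed in the uninduced Hey2 line, so only lower bounds hold. Against the floor of 10 reads, Fst was at least 21.7-fold higher, Cer1 at least 6.31-fold and Chrd at least 2.96-fold. These bounds leave out counting error.

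Cushion and transition genes did not pass 1.5-fold on either induction, with 0 of 9 for Hey1 and 0 of 10 for Hey2. The shares over all genes were 7.12% and 5.88%, from which such small counts cannot be set apart. Postn, a matrix protein of cushion mesenchyme, was at opposite ends, with the smallest ratio on Hey1 induction, 0.668 (0.518 to 0.859), and the largest on Hey2 induction, 1.37 (1.03 to 1.83). Zeb2, a repressor of E-cadherin, had the largest ratio for Hey1, 1.06 (0.844 to 1.33), and Cdh11 the smallest for Hey2, 0.876 (0.642 to 1.2). Between the uninduced lines 3 of 9 were higher and 4 lower in the Hey2 line, beside 39.2% and 24.9% of all genes. The matrix protease Mmp2 was 3.07-fold higher (2.41 to 3.94) and the proteoglycan Vcan 2.75-fold higher (2.28 to 3.32). N-cadherin (Cdh2), which joins cardiomyocytes, was 6.58-fold lower (5.77 to 7.53), Zeb1 3.09-fold lower (2.22 to 4.39) and Postn 1.73-fold lower (1.3 to 2.32). Has2, the hyaluronan synthase that swells the cushions, and Snai1, both named after their values were seen, were blank in the Hey1 line and stood at 4.06 and 1.86 RPKM in uninduced Hey2-line cells. Snai2, of the same list, went the other way. It stood at 0.672 RPKM in the uninduced Hey1 line, at the floor of 10 reads, and was blank in the Hey2 line.

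Chamber genes under Tbx2 and Tbx3 control were split on Hey1 induction, with 4 of 8 higher and 4 lower. The natriuretic peptide gene Nppb stood at 140 RPKM uninduced and 85.5 RPKM induced, 1.64-fold lower (1.47 to 1.84). Gja5, which encodes a connexin of fast-conducting muscle, was 1.52-fold lower (0.937 to 2.5). These were the 2 of 8 past 1.5-fold. Nppa, named here after its values were seen, stood at 419 and 333 RPKM, a ratio of 0.794 (0.749 to 0.841), whereas the calcium channel gene Cacna1c had the largest ratio, 1.09 (0.974 to 1.21). Tbx2 was higher in the same libraries, and no link between these values was tested. On Hey2 induction 0 of 7 passed, from Nppb at 1.3 (0.864 to 1.99) to Mycn at 0.876 (0.756 to 1.02). Between the uninduced lines 6 of 8 were lower by 1.5-fold in the Hey2 line, in which all 7 cardiomyocyte markers compared were lower too, with a median log2 ratio of -3.56. Their part in the chamber gene values was not tested. Nppb was 18.0-fold lower (12.8 to 26.0), Smpx 13.3-fold lower (10.3 to 17.4) and Nppa 5.40-fold lower (4.84 to 6.04). Mycn, a proliferation gene, was 6.39-fold higher (4.83 to 8.58).

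Partner transcription factors included the induced genes themselves. On Hey1 induction Hey1 was 11.7-fold higher (6.48 to 23.1), and the Notch ligand gene Jag1 stood at 1.43 RPKM uninduced and 0.825 RPKM induced, 1.73-fold lower (1.11 to 2.72). The other 9 of 11 stayed within 1.5-fold. On Hey2 induction Hand1 was 1.51-fold higher (0.863 to 2.75) and Gata6 had the smallest ratio, 0.879 (0.714 to 1.08), while Hey2 itself could not be compared against a blank. Of 10 compared between the uninduced lines, 2 were higher in the Hey2 line and 7 lower. Nkx2-5 was 17.7-fold lower in the Hey2 line (12 to 27.4), Tbx20, a repressor of Tbx2 in the chambers, 15.9-fold lower (13.9 to 18.4), Gata4 5.39-fold lower (4.60 to 6.34) and Gata6 3.31-fold lower (2.77 to 3.98). Notch1 was 5.74-fold higher (3.73 to 9.16). Tbx2 was lower by 6.14-fold and Tbx3 by 1.32-fold in the same pair. All 7 cardiomyocyte markers compared were lower there too, with a median log2 ratio of -3.56, and no link between these values was tested.

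**Figure D5:**
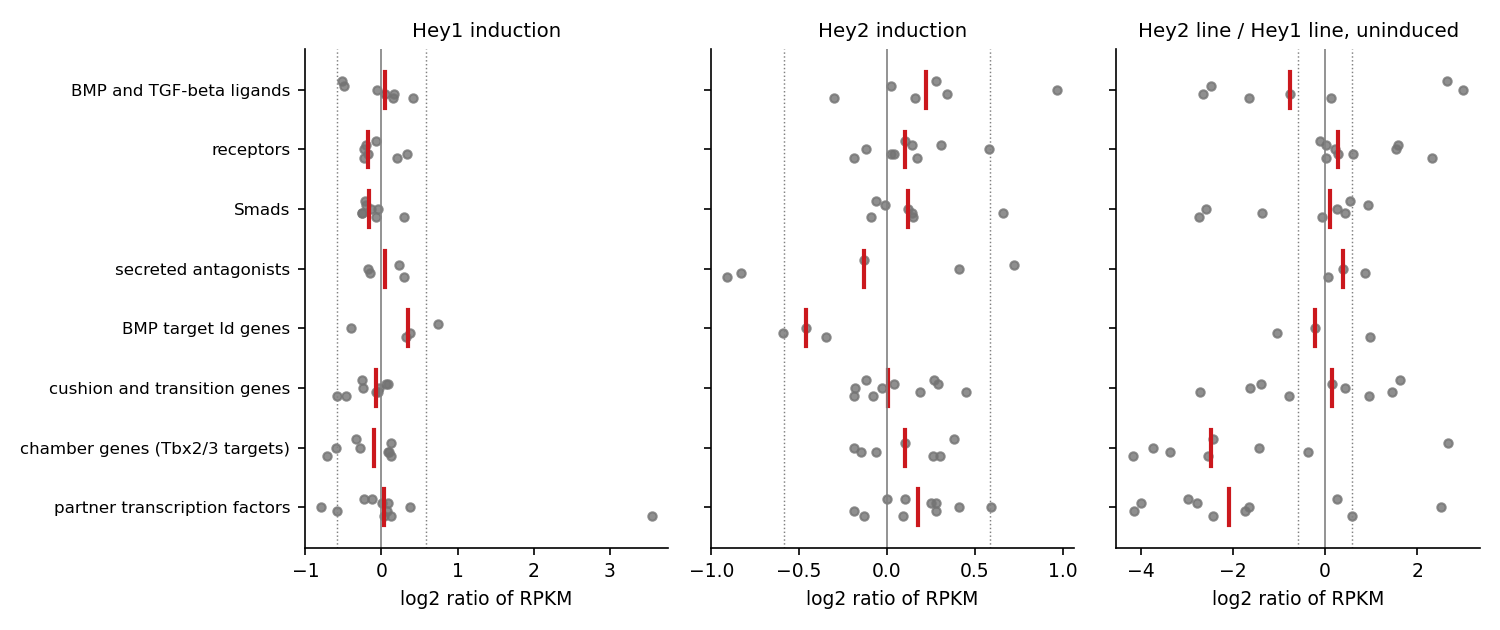
Log2 ratio of RPKM for each compared gene (grey points) of 8 pathway lists in Hey1 induction, Hey2 induction and the uninduced Hey2 line over the uninduced Hey1 line, with red bars for list medians and dotted lines at 1.5-fold; each panel has its own axis range. Medians stay between -0.46 and 0.35 on induction, and reach -2.48 for chamber genes and -2.08 for partner transcription factors between the lines.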

How the data were processed

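RNA was sequenced from 4 libraries, 1 for each line and treatment, and 8 chromatin immunoprecipitation samples were not used here. The authors deposited RPKM, blank under a low floor, with a signed fold score per line that equals the ratio of their RPKM, per the file headers and values. The mouse build mm9, Bowtie 1.0, DESeq (no version) and MACS 1.4.1 are named, with no role, per the submitters' processing notes. The annotation, read counter and strand handling are not stated in the sources at hand.

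Whole reads were recovered as RPKM times a whole gene length times a divisor of 7.4, 7.5, 5.75 or 10.375 M reads (uninduced and induced Hey1 line, then Hey2 line). The divisors used by the authors are not stated. With 11500000 reads for the uninduced Hey2 line all of 300 genes tried gave whole reads too, but up to 98.33% of a library's reads or of the lengths were then divisible by 1 small factor, against at most 49.67% at the scale used. The reads, floors and intervals rest on this choice of scale, and the ratios of RPKM do not. This gave whole reads, within the rounding of the values, for 15363 of 15371 genes with a value (99.9%). For 634 genes a multiple of the smallest length was taken, which brought their reads up to the listing floor of 10 reads (Hey1 line) or 5 reads (Hey2 line). The recovery and the ratios were tested on simulated data.

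A gene was compared where both libraries listed a value with a mean of at least 1 RPKM. Ratios carry exact conditional 95% binomial intervals, levels exact Poisson intervals, and quotients of ratios exact conditional intervals of an odds ratio. PCR copies are not independent molecules, so intervals and floors cover counting error only. With 1 library per group no test across conditions was made, and the size rule was 1.5-fold. In each list the genes with the largest and the smallest ratio are named, with up to 3 others past 1.5-fold that have the most reads, on both inductions and between the uninduced lines. The values of 1 gene that this rule names are not reported here. The members, lists and rules were chosen with earlier results of these data known. Genes were named by the table's symbols, and 1966 rows without one took the RefSeq (GRCm38.p6) symbol of their Entrez identifier, where 23334 identifiers matched. Overlapping and antisense genes are uncertain, since strand handling is not given. The tools were NumPy 2.4.6, SciPy 1.17.1, pandas 2.3.3 and Matplotlib 3.10.9 under Python 3.11.15. Other scalings, filters, size rules and pseudocounts were tried, and their effect is given at the end.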

Additional observations from a re-analysis of the deposited data

Results flagged for a closer look

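The responses to induction of 7 members were compared as the quotient of the Hey2-line ratio and the Hey1-line ratio. Tgfb2 was singled out because its quotient of 1.49 (1.2 to 1.85) had a counting interval off 1. The other 6 were singled out because the library pairs moved in opposite directions, and with 1 library per group those differences were not tested. Their quotients were 0.737 for Tbx2, 1.24 for Tbx3, 0.707 for Bmp2, 1.26 for Bmp4, 0.605 for Msx2 and 2.58 for Twist1, and each counting interval held 1. Tbx3 and Bmp4 had Hey1-line ratios of 0.979 and 0.999, and both were higher in both lines under median ratio and upper quartile scaling. The share of all genes with opposite directions is not given here.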

How the results depend on the processing

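Of 145 member ratios recomputed under other scalings, pseudocounts of 1 and 0.1 RPKM and a correction for gene length, 138 stayed inside the 95% interval of the reported ratio, 7 left it and 0 of those past 1.5-fold or with an interval off 1 changed direction. The 7 were line ratios of Tbx2 (0.244 and 0.191 at a pseudocount of 1 RPKM), Tgfb2 (0.407 and 0.405 under median ratio and upper quartile scaling, 0.258 and 0.355 after the length correction) and Tbx3 (0.666 after the length correction). The length correction, and scaling of the member counts, were chosen after seeing the data. Counts of members depended on the size rule. At 2-fold, 0 passed on either induction and 1 between the induced lines. At the smallest size rule tried, below 1.5-fold, 2 passed on Hey1 induction, 5 on Hey2 induction and 5 between the induced lines. With at least 50 reads in each library, 0 passed on Hey1 induction and 1 between the uninduced lines, because Twist1 and Tbx2 have fewer reads. The same demand changed the counts over all genes from 758 to 233 on Hey1 induction, from 702 to 163 on Hey2 induction, from 7159 to 4256 between the uninduced and from 7358 to 4776 between the induced lines. Without the filter on the mean, 1401 genes passed on Hey2 induction. Read numbers limit Msx1, Msx2 and Twist1 most, with 13 to 41 reads where listed. No paired analysis was possible because each group has 1 library. Leaving out a library was not possible for the same reason.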
